A study of Rattus norvegicus with 25 samples.

Results

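The gingiva of 15 rats with experimental periodontitis (EP) treated with a drug-loaded hydrogel was compared with the gingiva of 5 EP rats given no drug, over all genes, to look for changes that the gels shared. These 20 libraries are part of a series of 25, with 1 RNA-seq library per rat. The 3 gel groups were curcumin gel (Cur gel, 2 mg/mL), zinc oxide nanoparticle gel (ZNP gel, 2 mg/mL) and the combined gel (Cur/ZNP gel, 1 mg/mL of each), with 5 rats in each, and each counted equally in the mean of the gels. They were set against the EP group (n = 5), and 5 sham rats (healthy controls) are shown beside them. All were wild-type male Sprague-Dawley rats, 6 weeks old in the sample labels and 8 weeks old in the methods. The age in the methods is that of the rats bought for the study. Gel treatment began 4 weeks after the start of the experiment, and tissue was collected at 8 weeks. In the EP and gel groups silk was tied around the first molars of the upper jaw on both sides and smeared with Porphyromonas gingivalis, a bacterium of the periodontal pocket. Each gel was a methylcellulose hydrogel that sets at body temperature, and 200 μL was injected into the pocket weekly for 4 weeks. A drug-free hydrogel is stated for the sham rats only, and whether EP rats received one is not stated, so the drugs, the gel and the injections cannot be told apart in this comparison.

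Periodontitis is an inflammation of the gum driven by a bacterial film on the tooth, in which immune cells enter the gingiva and the bone around the root is resorbed. Curcumin, a plant polyphenol, is known in other settings to dampen the transcription factor NF-kB and to induce genes of NRF2, the regulator of antioxidant enzymes. Zinc oxide particles kill bacteria and release zinc ions, to which cells respond with metallothioneins, small zinc-binding proteins, and with zinc exporters.

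No single gene passed the test between the gels and EP. Values were normalized counts, that is, reads divided by a size factor for each library, and were compared as log2(normalized count + 1) with limma, with Benjamini-Hochberg adjustment. Of 16062 genes, 0 had an adjusted p under 0.05, which is 0% of the genes tested, and the smallest adjusted p was 0.431. At an unadjusted p under 0.05 there were 835 genes (5.2%), of which 353 (2.2%) were higher and 482 (3%) lower in the gels. The median log2 fold change over all genes was -0.00999, and the median standard error was 0.204. No gene had all 15 gel libraries above all 5 EP libraries (0 of 16062, 0%), and none had all of them below (0 of 16062, 0%). All log2 fold changes below are the mean of the 3 gels minus EP on this scale. Among the 20 genes with the smallest p, 10 in each direction, the adjusted p was 0.431 for Tsc22d3, 0.626 for Cry1, Tmeff2 and Nr1d1, and 0.921 for the other 16.

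**Figure D1:**
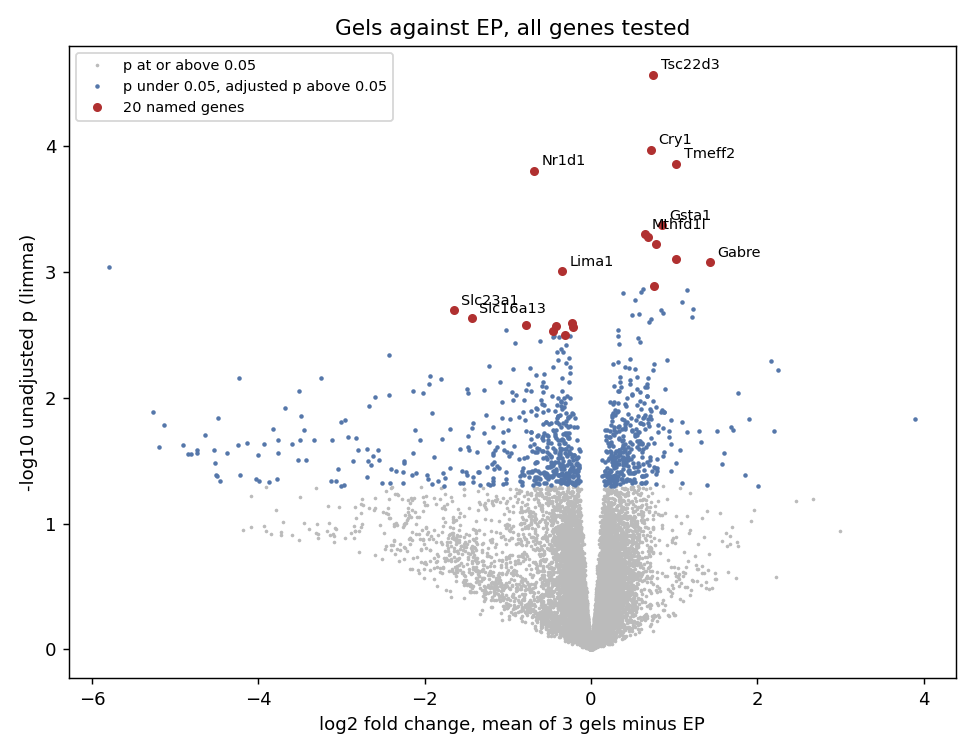
Each point is 1 of 16062 genes; the horizontal axis gives the log2 fold change (mean of the 3 gels minus EP) and the vertical axis the -log10 of the unadjusted limma p. Genes at p under 0.05 are blue and the 20 named genes red; Tsc22d3 lies highest, and no gene passed an adjusted p of 0.05.

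The number of genes called depended on the statistical tool and on a pair of EP libraries. EP 3 and EP 4 stood apart from every gel library: genes of nasal glands (odorant-binding and lipocalin-type secretory proteins) took 8.32% of the reads in EP 3 and 9.38% in EP 4, against at most 0.0649% in the 15 gel libraries and at most 0.0141% in EP 1, EP 2 and EP 5. Sham 4 was alike, at 12.3%. The 10 most-read genes of each library took 40.7% of reads in EP 3, 47.7% in EP 4 and 51.0% in Sham 4. This share was 10.6% to 20.7% in the gels and 12.8% to 23.1% in EP 1, EP 2 and EP 5. Size factors were 0.710 in EP 3, 0.683 in EP 4 and 0.492 in Sham 4, against 0.955 to 1.31 in the gels. On the whole reads recovered from the same table, edgeR called 65 genes (0.405%), 1 higher and 64 lower in the gels, and DESeq2 called 143 (0.89%), 22 higher and 121 lower. In 60 of the 64 genes that edgeR called lower, and in 86 of the 121 that DESeq2 called lower, over 90% of the EP signal came from EP 3 and EP 4. With EP 3, EP 4 and Sham 4 left out together, limma called 0 genes (188 at p under 0.05), edgeR 0 (233) and DESeq2 4. Those 4 genes had 0 reads in the remaining EP libraries. EP 3, EP 4 and Sham 4 were set apart by their reads, so this choice came from the data in limma, edgeR and DESeq2 alike. Leaving out EP 3, EP 4 and Sham 4 keeps only EP 1, EP 2 and EP 5 of the EP group, which lowers the power to call genes. Without EP 3 alone limma still called 0 genes, with 361 at an unadjusted p under 0.05, and without EP 4 alone 0, with 219.

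The tissue itself was mixed in every group. Markers of the lining epithelium of the mouth were abundant: Krt13 ranged over 119840 to 719292 normalized counts in the gels, 86044 to 491521 in EP and 31579 to 254388 in sham. Fibroblast matrix was present too, with Col1a1 at 43277 to 174939 in the gels and 49937 to 137113 in EP. Skeletal muscle genes took 0.0221% to 6.19% of the reads in the gels and 0.564% to 4.27% in EP, and salivary gland genes 0.0190% to 15.8% in the gels and 0.0579% to 14.7% in EP. Of the marker genes examined, Pecam1 was not found in the table analysed, while Cdh5, another endothelial marker, was read in every library. In bulk tissue, fewer cells of a type and less RNA per cell cannot be told apart. Depth was alike, with a median of 64618543 reads in the gels (58815120 to 81791804) and 62227570 in EP (61292453 to 70801162).

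The gene with the smallest p was Tsc22d3 (chrX:111884295-111887906, Rnor_6.0), which encodes GILZ, a protein induced by glucocorticoid hormones that restrains NF-kB and AP-1. It had 10737, 14524, 15842, 12392 and 14769 normalized counts in Cur gel rats. In ZNP gel rats it had 9944, 8992, 14512, 14643 and 13997, and it had 13420, 14285, 12415, 13261 and 17153 in Cur/ZNP gel rats. EP rats had 10176, 7190, 6376, 7737 and 8267, and sham rats 3587, 3856, 6551, 4470 and 5412. Every gel library was above the EP median, and 13 of the 15 were above the highest EP library, so the groups overlapped only through EP 1 and ZNP gel 1 and 2. The log2 fold change was 0.75 (SE 0.143, 95% interval 0.45 to 1.05; 1.68-fold), with an adjusted p of 0.431 in limma. EdgeR gave it an adjusted p of 0.0224 and DESeq2 0.000114. It was 0.64 higher when EP 3, EP 4 and Sham 4 were left out (adjusted p = 1 in limma and edgeR, 0.421 in DESeq2). Each gel on its own gave a similar value: 0.78 for Cur gel, 0.63 for ZNP gel and 0.84 for Cur/ZNP gel (SE 0.175 each). The F test among the gels gave an adjusted p = 1 in limma. The gene was chosen by the mean of these 3 values, which share the EP libraries.

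Tsc22d3 belongs to a list of 14 genes that glucocorticoids are known to induce or that act on the hormone or its receptor. Of these, 13 had a positive and 1 a negative log2 fold change, and 5 were higher at p under 0.05, against 2.2% of all genes. Limma called 0 of the 14, and edgeR and DESeq2 called Tsc22d3. The list's median was 0.38, beside -0.00999 over all genes. Zbtb16, a zinc-finger repressor, ranged over 693, 1783 and 3228 normalized counts (lowest, median and highest) in the gels, against 1235, 1168, 465, 1055 and 392 in EP. Its log2 fold change was 1.23 (SE 0.350). Fkbp5, a chaperone partner that lowers the receptor's affinity for hormone, ranged over 2340, 3393 and 4497 in the gels and 1501, 2089 and 3522 in EP, a difference of 0.62 (SE 0.261). Errfi1, a feedback inhibitor of the EGF receptor, differed by 0.47 (SE 0.158), and 13 of 15 gel libraries were above the highest EP library. Dusp1, a phosphatase that switches off MAP kinases, differed by 0.41 (SE 0.148). Dusp1 differed by 0.71 with curcumin, 0.14 with the nanoparticles and 0.38 with both. Errfi1 differed by 0.66, 0.23 and 0.52 in the same order, and Zbtb16 by 1.08, 1.20 and 1.40. The nanoparticles thus gave the smallest value for Dusp1 and Errfi1. The F test among the gels gave an adjusted p of 0.707 for Dusp1 and 0.834 for Errfi1 in limma.

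The rest of the list was less clear. Nr3c1, the glucocorticoid receptor, differed by 0.06 (SE 0.077), and Klf9 was the only member with a negative value, -0.09. Without EP 3, EP 4 and Sham 4 the list's median was 0.33, and 5 members were higher at p under 0.05. Sgk1, a kinase, was then among them in place of Dusp1. Of all 16062 genes, 136 were higher at that p in this limma fit. Fkbp5 then had the smallest p of all genes, with a difference of 0.95 (adjusted p = 1). The mean log2 level over the list ran from 11.3 to 12.2 in the gel libraries, from 11.2 to 11.5 in EP and from 10.2 to 10.7 in sham, so that EP lay above sham and the gels reached above EP with overlap. The EP group serves in both comparisons. In EP against sham, where 37.6% of all genes were called by limma, Tsc22d3 differed by 0.75 (adjusted p = 0.00237) and Zbtb16 by 2.58 (adjusted p = 0.000258). Corticosterone was not among the measurements analysed here.

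**Figure D2:**
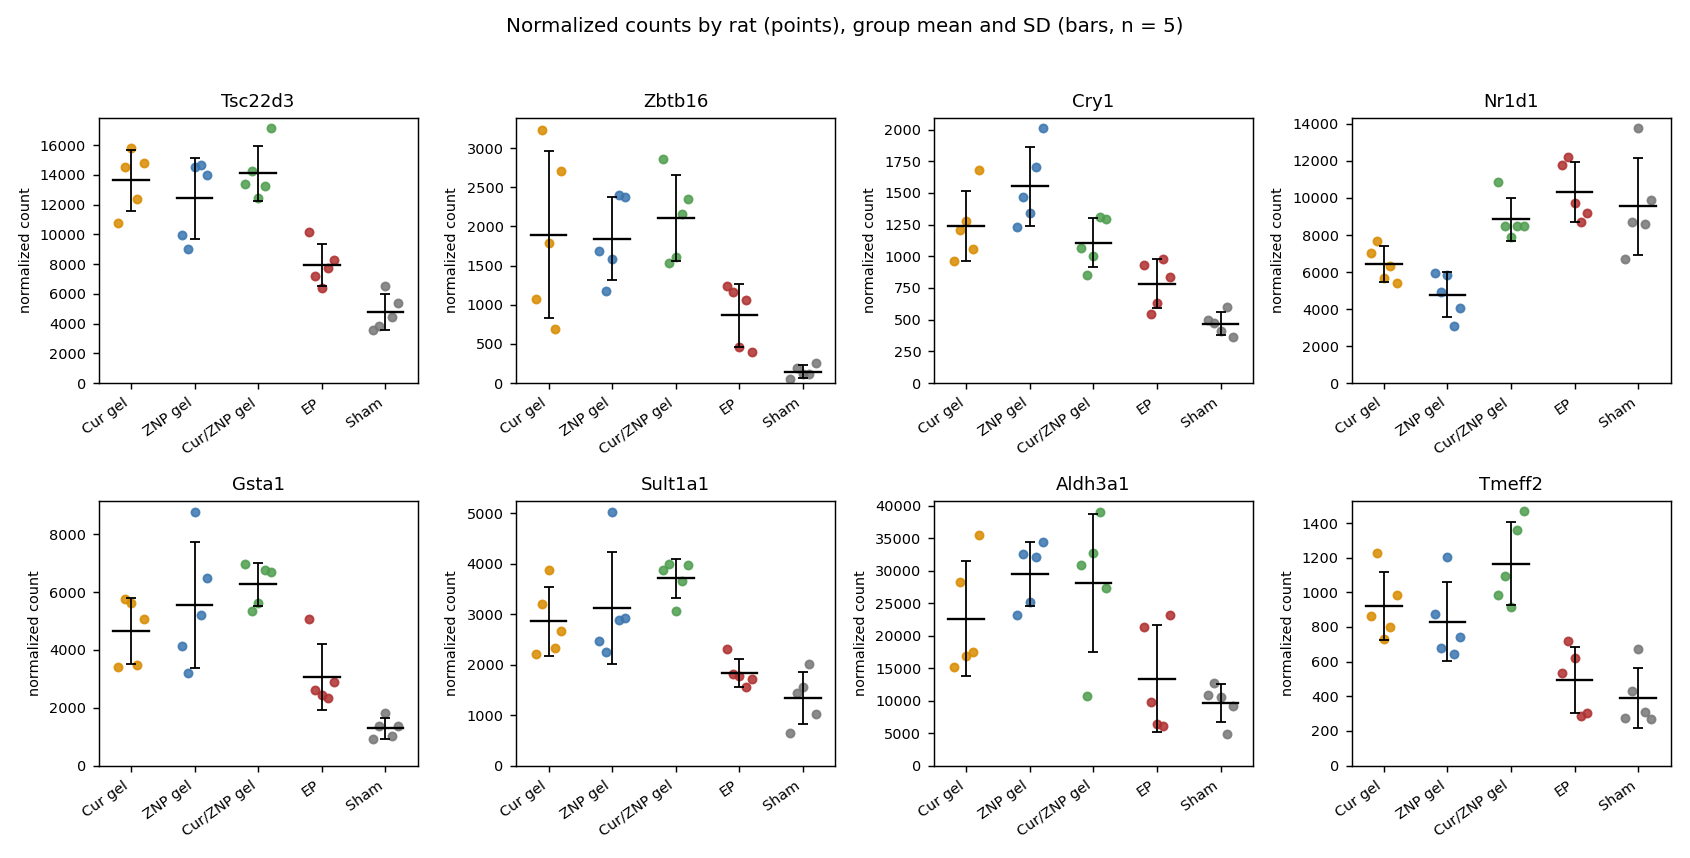
Normalized counts of 8 genes in each rat (points), with the group mean and SD (n = 5) as black bars; the gels stand left of EP, and EP left of sham. Tsc22d3 lies above the highest EP library in 13 of 15 gel libraries, Nr1d1 lies below the lowest EP library in 14 of 15, Gsta1 overlaps through EP 1, and Aldh3a1 through EP 1 and EP 5.

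Members of the circadian clock came next. In this feedback loop CLOCK and its partner BMAL1 (Arntl) switch on the Per and Cry genes through E-boxes, PER and CRY proteins then block CLOCK, and REV-ERB proteins (Nr1d1, Nr1d2) repress Arntl. The promoter windows of Per2 and Nr1d1, which differed from EP in opposite directions here, are shown because they carry such elements. They run from 250 bases before to 50 bases after each start in RefSeq (GRCr8), and the capitals mark 3 elements searched on both strands. These are the E-box (CACGTG), an E-box variant that differs in its last letter (CACGTT, which stands in the upstream Nr1d1 window on the opposite strand) and the D-box (TTATGTAA). Per2 has its window at chr9:99496944-99497243 (minus strand), and Nr1d1 has a window at each of its starts, at chr10:84231763-84232062 and chr10:84229405-84229704 (minus strand).
Per2: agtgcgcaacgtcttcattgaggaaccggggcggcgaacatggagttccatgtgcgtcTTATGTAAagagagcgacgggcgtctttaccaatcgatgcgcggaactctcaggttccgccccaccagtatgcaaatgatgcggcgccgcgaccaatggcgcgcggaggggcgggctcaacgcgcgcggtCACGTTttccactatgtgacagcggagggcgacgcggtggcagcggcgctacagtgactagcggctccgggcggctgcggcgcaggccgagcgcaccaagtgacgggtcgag
Nr1d1, upstream start: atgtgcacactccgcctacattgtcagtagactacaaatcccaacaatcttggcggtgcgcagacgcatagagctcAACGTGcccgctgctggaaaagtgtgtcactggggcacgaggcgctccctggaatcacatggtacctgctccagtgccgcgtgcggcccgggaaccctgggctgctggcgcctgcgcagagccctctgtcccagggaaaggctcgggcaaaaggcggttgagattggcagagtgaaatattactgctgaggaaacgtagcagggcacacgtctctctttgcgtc
Nr1d1, downstream start: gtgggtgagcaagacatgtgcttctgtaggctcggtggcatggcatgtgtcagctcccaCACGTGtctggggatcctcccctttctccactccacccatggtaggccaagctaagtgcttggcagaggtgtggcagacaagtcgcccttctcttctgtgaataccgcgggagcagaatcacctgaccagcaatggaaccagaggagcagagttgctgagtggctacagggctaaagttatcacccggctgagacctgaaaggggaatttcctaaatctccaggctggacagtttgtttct
In Per2 the D-box begins 192 and the E-box variant 62 bases before the start, and in Nr1d1 the variant begins 174 bases before the upstream start and CACGTG 191 bases before the downstream one. Among all 33469 windows of this length, 6.42% hold CACGTG, 4.83% hold CACGTT and 0.893% hold TTATGTAA. Of the 20 named genes, 16 had a window, and a letter match does not show that a factor binds. The full palindromic glucocorticoid element was found in 0 of the 3 windows of Tsc22d3 and in 0.0149% of all windows.

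Cry1 (chr7:24534615-24634097, Rnor_6.0), a repressor of CLOCK, had 964, 1205, 1279, 1060 and 1681 normalized counts in Cur gel rats. It had 1232, 1471, 1342, 1707 and 2010 in ZNP gel rats and 1069, 856, 1005, 1308 and 1297 in Cur/ZNP gel rats. EP rats had 931, 541, 633, 981 and 838, and sham rats 366 to 600. Of the gel libraries 13 were above the highest EP library, the exceptions being Cur gel 1 and Cur/ZNP gel 2. The log2 fold change was 0.73 (SE 0.155, adjusted p = 0.626 in limma), and DESeq2 gave an adjusted p of 0.00212 and edgeR 0.0565. The difference was 0.75 with EP 3, EP 4 and Sham 4 left out (adjusted p = 1 in limma).

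Nr1d1 (chr10:86683875-86690815, Rnor_6.0) was lower in the gels. It had 7053, 7696, 5653, 6321 and 5384 normalized counts in Cur gel rats, 5957, 4937, 5861, 3079 and 4065 in ZNP gel rats, and 10889, 8474, 7916, 8510 and 8483 in Cur/ZNP gel rats. EP rats had 11805, 12230, 9713, 8677 and 9163, and sham rats 6689 to 13790. All Cur and ZNP gel libraries lay below the lowest EP library, as did 4 of the Cur/ZNP gel libraries by a narrow margin, while Cur/ZNP gel 1 lay among the EP libraries. The mean of the gels differed from EP by -0.68 (SE 0.15, adjusted p = 0.626 in limma; 0.0361 in edgeR and 0.00364 in DESeq2). Singly, ZNP gel differed by -1.14, Cur gel by -0.68 and Cur/ZNP gel by -0.22, and the F test among the gels gave an adjusted p = 0.707 in limma. For ZNP gel against EP, Nr1d1 was the only gene that limma called (1 of 16062, 0.00623%), a call that was lost in 8 of 10 fits with 1 library left out. Left without EP 3, EP 4 and Sham 4, the mean differed by -0.78 (adjusted p = 1 in limma).

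Over the 19 clock genes tested, 2 were higher (Cry1 and Per2) and 2 lower (Nr1d1 and Bhlhe41) at an unadjusted p under 0.05, against 2.2% of all genes higher and 3% lower, and the median was 0.07. Limma called 0 of the 19, edgeR called Nr1d1, and DESeq2 called Nr1d1 and Cry1. Per2 ranged over 4662, 7220 and 12879 normalized counts in the gels and 4177, 4964 and 7677 in EP, a difference of 0.56 (SE 0.201). Bhlhe41, a repressor that competes at E-boxes, differed by -0.52 (SE 0.212). Other parts of the loop did not follow in 1 direction: Arntl differed by 0.14 (SE 0.202), Per1 by 0.04 (SE 0.126), Per3 by 0.15 (SE 0.202; -0.018 without EP 3, EP 4 and Sham 4) and Dbp, an output factor that binds D-boxes, by -0.51 (SE 0.267). Without EP 3, EP 4 and Sham 4 the list's median was 0.02. Nfil3 (0.68) was then higher at p under 0.05 beside Cry1 and Per2, against 136 of all 16062 genes. Npas2 (-0.65) was lower beside Nr1d1, against 52 of all genes, and Bhlhe41 (-0.48) was no longer among them. Clock transcripts and several glucocorticoid-induced genes are known to vary over the day, and the hour of tissue collection is not given in the sources used here. Its part in the result was not tested.

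Enzymes that modify foreign compounds were among the 10 named genes with the smallest p on the higher side. Gsta1, a glutathione S-transferase, ranged over 3215, 5607 and 8773 normalized counts in the gels, against 5074, 2626, 2441, 2325 and 2880 in EP and 908 to 1813 in sham. Its log2 fold change was 0.85 (SE 0.206), and the groups overlapped only through EP 1. Gsta genes form a family of near-identical copies among which reads can be split, so the level of this gene is uncertain. Sult1a1, a sulfotransferase for phenols, had 2210, 3064 and 5034 in the gels and 2312, 1815, 1772, 1563 and 1711 in EP. It differed by 0.79 (SE 0.197), with 13 of 15 gel libraries above all EP libraries.

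Aldh3a1, an aldehyde dehydrogenase of surface epithelia induced through the aryl hydrocarbon receptor (AhR), ranged over 10713, 28267 and 39115 normalized counts in the gels. EP rats had 21369, 9868, 6459, 6030 and 23166, so EP 1 and EP 5 lay within the range of the gels. The difference was 1.15 (SE 0.316). Cyp1a1, the cytochrome P450 most strongly tied to AhR, was low, at 54.1 to 407 in the gels and 57.0 to 320 in EP, and differed by 0.96 (SE 0.394). Only these 2 of 9 AhR genes were at p under 0.05 (2.2% of all genes were higher), and the list's median was 0.18. Without EP 3, EP 4 and Sham 4, 0 of the 9 were at p under 0.05, the median was 0.09, and Aldh3a1 differed by 0.57. Krt13 and Krt4 of the surface epithelium were also variable, Krt4 ranging over 90575 to 645626 in the gels and 65477 to 409402 in EP, and their part in the Aldh3a1 values was not tested.

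Few NRF2 targets differed. Of 19 tested, 15 were positive, and 1 was higher at p under 0.05 (2.2% of all genes were), with a median of 0.11. None was called by limma, edgeR or DESeq2. The 1 member was Txn1, thioredoxin, at 7277 to 17528 normalized counts in the gels and 5949 to 13743 in EP, with a difference of 0.42 (SE 0.198). Nqo1, a quinone reductase much used to read out NRF2 activity, differed by 0.54 (SE 0.265), Hmox1, heme oxygenase, by 0.14 (SE 0.203) and Gclm, a subunit of the glutathione-synthesizing enzyme, by 0.06 (SE 0.105). In the fit without EP 3, EP 4 and Sham 4 the values were 0.19 for Txn1, 0.23 for Nqo1, -0.21 for Hmox1 and -0.020 for Gclm, and the list's median was 0.04.

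Among the 10 named genes on the higher side were also metabolic and membrane proteins. Tmeff2, a membrane protein with follistatin-like domains, had 645, 914 and 1467 normalized counts in the gels, against 537, 719, 619, 288 and 304 in EP. It differed by 1.03 (SE 0.224), and 13 of 15 gel libraries lay above all EP libraries. Idi1, an enzyme of the cholesterol pathway, ranged over 4384, 8117 and 11976 in the gels and 3611, 4244 and 6106 in EP, a difference of 0.76 (SE 0.206). Mthfd1l, an enzyme of mitochondrial folate metabolism, ranged over 1030 to 1520 in the gels and 631 to 1176 in EP, with a difference of 0.65 (SE 0.158).

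The other members of that set were expressed at low levels. Gabre, a subunit of the GABA-A receptor, ranged over 189, 517 and 1103 normalized counts in the gels and 124, 173 and 364 in EP (1.43, SE 0.370). Plk5, of the polo-like kinase family, ranged over 221, 503 and 698 in the gels and 158, 249 and 264 in EP (1.02, SE 0.262), and Ca11, a carbonic anhydrase relative without enzyme activity, over 482, 678 and 1228 in the gels and 350, 455 and 585 in EP (0.68, SE 0.168). DESeq2 called all 10 of these higher genes and edgeR only Tsc22d3; of the 22 genes DESeq2 called higher, 8 had 0 reads in every EP library and the other 14 had log2 fold changes from 0.375 to 1.43. Without EP 3, EP 4 and Sham 4 the 10 genes were called by none of the 3 tools, with only EP 1, EP 2 and EP 5 left as EP. In DESeq2 all 10 stayed positive in that fit. Cry1 rose from 0.71 to 0.74 and the rest fell, among them Sult1a1 from 0.81 to 0.72 and Ca11 from 0.68 to 0.49.

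**Figure D3:**
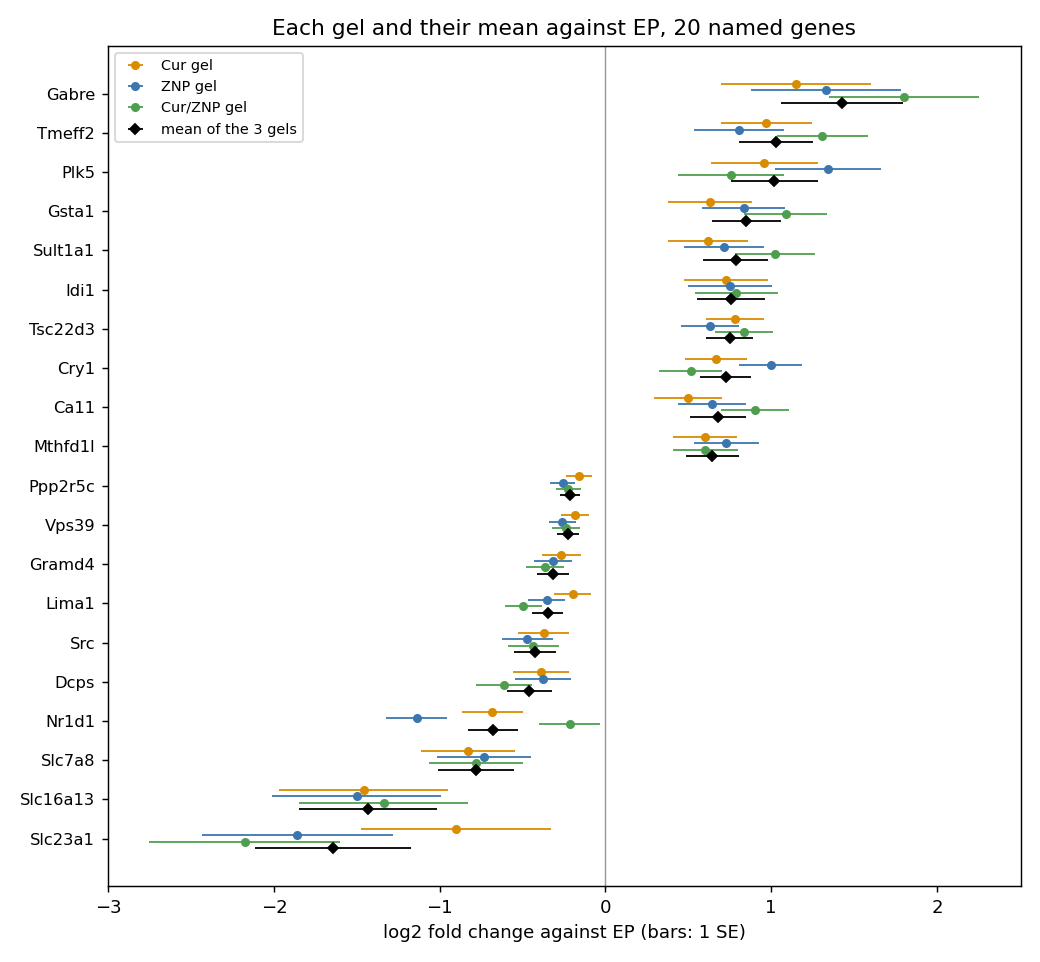
Log2 fold change against EP (horizontal axis; bars are 1 SE) for the 20 named genes, in each gel and in the mean of the 3 gels (diamonds). The estimates of the 3 gels lie on the same side of 0 for each gene, and Nr1d1 spreads from -1.14 in ZNP gel to -0.22 in Cur/ZNP gel. The genes were chosen by the mean of these gels against the same EP libraries, so a shared sign is favored by the choice.

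On the lower side the named genes were mostly those high in EP 3 and EP 4. In 9 of the 10, all but Nr1d1, EP 3 and EP 4 were the highest EP libraries. Slc16a13, a monocarboxylate transporter, ranged over 344, 549 and 754 normalized counts in the gels, against 577, 575, 2262, 7072 and 1078 in EP. Its log2 fold change was -1.43 (SE 0.416), but -0.43 without EP 3, EP 4 and Sham 4. Slc23a1, a vitamin C transporter, ranged over 62.5, 156 and 336 in the gels and had 164, 280, 867, 2107 and 301 in EP, with a difference of -1.65 (SE 0.47) that was -0.65 without those libraries. These are the same libraries in which nasal gland genes were high.

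Slc7a8, an amino acid transporter, ranged over 820, 1129 and 1363 normalized counts in the gels and had 1396, 1367, 2716, 4188 and 1176 in EP. The difference was -0.78 (SE 0.231), and -0.24 without EP 3, EP 4 and Sham 4. Smaller differences were found for Src, a tyrosine kinase (-0.43, and -0.15 without those libraries), Dcps, which degrades the cap of decayed mRNA (-0.46, and -0.15), and Gramd4 (-0.32, and -0.16). Lima1, an actin-bundling protein, differed by -0.35 (SE 0.0919; -0.19 without those libraries), Vps39, of the complex that tethers late endosomes, by -0.23 (-0.13) and Ppp2r5c, a regulatory subunit of protein phosphatase 2A, by -0.21 (-0.17). Of these 3, Ppp2r5c was tightest, with 4082 to 5643 in the gels and 5162 to 5823 in EP, and 14 of 15 gel libraries lay below all EP libraries. EdgeR called Nr1d1, Slc16a13 and Slc23a1 lower, and DESeq2 called 9 of the 10, with Gramd4 the exception; without EP 3, EP 4 and Sham 4 none of the 3 tools called any of them.

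**Figure D4:**
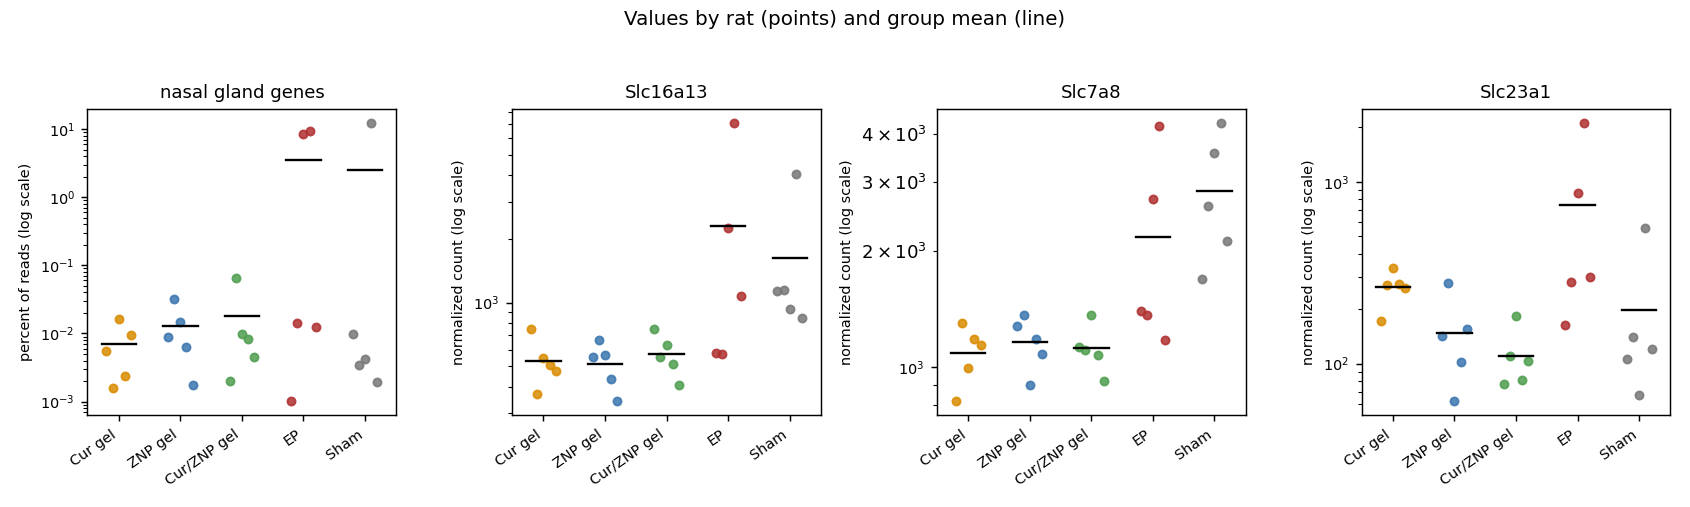
Percent of reads in nasal gland genes, and normalized counts of Slc16a13, Slc7a8 and Slc23a1, in each rat (points; log axes) with the group mean (line). EP 3 and EP 4 hold 8.32% and 9.38% nasal gland reads against at most 0.0649% in the gels, and they are the highest EP libraries for all 3 transporters.

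Inflammatory genes showed no shared difference that passed a test. Of 18 genes of NF-kB and its feedback loop, 0 were at p under 0.05 in either direction, and the median was -0.04. Nfkbia, the inhibitor that NF-kB itself induces, ranged over 5280, 6291 and 8694 normalized counts in the gels and 4553, 5759 and 6702 in EP, with a difference of 0.18 (SE 0.126) that was 0.35 without EP 3, EP 4 and Sham 4. Of 31 cytokines and chemokines 0 were at p under 0.05, with a median of 0.08, and of 24 complement genes 0, with a median of 0.13. Tnf was low, at 8.38 to 131 in the gels and 5.82 to 57.8 in EP, and differed by 0.18 with a 95% interval of -1.13 to 1.49, which holds both signs, or by 0.83 without those libraries. Il1b ranged over 63.5 to 2983 in the gels and 204 to 1414 in EP, a difference of -0.98 (SE 0.705), or -0.23 without them. Il6 was near the floor, at 0 to 35.1 in the gels and 0 to 26.8 in EP, and Il4 had 0 reads in all libraries.

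Markers of tissue macrophages mostly had positive values, and none was called by limma, edgeR or DESeq2. Of 16 tested, 15 were positive, 4 were higher at an unadjusted p under 0.05 (against 2.2% of all genes), and the median was 0.32. Cd163, the scavenger receptor for haptoglobin-bound hemoglobin, ranged over 729, 1637 and 3169 normalized counts in the gels and had 805, 1022, 1552, 757 and 629 in EP, a difference of 0.85 (SE 0.313). Lyve1, which also marks lymphatic vessels, differed by 0.72 (SE 0.266), F13a1, coagulation factor XIII A, by 0.68 (SE 0.261) and Mrc1, the mannose receptor, by 0.62 (SE 0.253). Genes shared by most macrophages had values near 0: Cd68 by 0.0087 (SE 0.266), Csf1r by 0.06 (SE 0.174) and Adgre1 by 0.05 (SE 0.344). With EP 3, EP 4 and Sham 4 left out these were 0.32, 0.20 and 0.44 in that order, while Cd163 was 1.02, Mrc1 0.64, Lyve1 0.45 and F13a1 0.43. The list's median was then 0.43, and 3 members were higher at p under 0.05, against 136 of all 16062 genes.

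The medians of the lymphocyte lists changed sign when the same libraries were left out. T and natural killer cell genes had a median of -0.18, and 0.50 without EP 3, EP 4 and Sham 4. B and plasma cell genes had a median of -0.46, and 0.49 without them. Interferon-stimulated genes had a median of 0.31 and 0.53 without them. Of 23, 1 was higher (Mx2) and 1 lower (Ifit1) at p under 0.05, against 2.2% and 3% of all genes. Ifit1 differed by -2.34, or -1.15 without those libraries. Mast cell genes had a median of 0.11 with and without those libraries. Of 12, 8 were positive and 4 negative, and 1 was higher at p under 0.05 (2.2% of all genes were). It was Tpsb2, a mast cell tryptase, which had the largest value of the list, 0.89 (SE 0.309). Without EP 3, EP 4 and Sham 4 Tpsb2 differed by 0.60, and 0 of the 12 were at p under 0.05. Genes of endoplasmic reticulum stress were negative in 18 of 20, with a median of -0.25 that was -0.00882 without those libraries.

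No gene of zinc handling was higher at p under 0.05. Of 25 metallothioneins and zinc transporters, 0 were higher and 4 lower at p under 0.05 (3% of all genes were lower), and the median was -0.07. Mt2A, a metallothionein that zinc induces, ranged over 2232, 3749 and 5621 normalized counts in the gels and 2221, 3189 and 5150 in EP, with a difference of 0.17 (SE 0.298) that was -0.20 without EP 3, EP 4 and Sham 4, and Slc30a1, the zinc-induced exporter of the plasma membrane, differed by -0.05 (SE 0.211). The 4 lower members were the transporters Slc39a9 (-0.35), Slc39a2 (-1.57), Slc30a6 (-0.27) and Slc39a7 (-0.61). None of the 25 was at p under 0.05 without EP 3, EP 4 and Sham 4, where Slc39a9 differed by -0.071, Slc30a6 by -0.054 and Slc39a7 by -0.18. Slc39a2 had 39.2 to 182 in the gels and 116, 59.2, 1061, 2131 and 118 in EP, and its difference was 0.028 without those libraries. Cur gel contains no zinc, so the mean over the 3 gels is not a measure of zinc alone; in ZNP gel Mt2A differed by 0.23 and Slc30a1 by -0.13.

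Genes of bone turnover were next examined, since bone loss is the outcome of the disease. Of 20 osteoblast and mineral matrix genes 0 were at p under 0.05, with a median of -0.18, and of 14 osteoclast genes 0, with a median of -0.08. Bglap, osteocalcin, ranged over 70.4, 449 and 1316 normalized counts in the gels and 268, 698 and 2506 in EP, with a difference of -1.06 (95% interval -2.43 to 0.32). Tnfrsf11b, osteoprotegerin, the decoy that binds the osteoclast factor RANKL, ranged over 461, 700 and 2344 in the gels and 345, 556 and 806 in EP, with a difference of 0.42 (-0.16 to 0.99). Of 20 matrix proteases and their inhibitors, 14 were positive and 6 negative, with a median of 0.09. Only Mmp13, a collagenase, was at p under 0.05 (3% of all genes were lower). Mmp13 differed by -1.84 (SE 0.87), with ZNP gel 2 at 1574 above all EP libraries. Without the EP and sham libraries high in nasal gland reads, Mmp13 differed by -1.68 and was no longer at p under 0.05. Osteoblast genes are markers of bone rather than of the soft gingiva, and Ibsp, a bone matrix protein, was read at 94.2 to 5044 in the gels and 172 to 1891 in EP.

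Ceacam1, an inhibitory receptor of the immunoglobulin superfamily, ranged over 527, 2384 and 3634 normalized counts in the gels and had 1656, 2682, 5430, 5329 and 1791 in EP. The mean of the gels differed from EP by -0.70 (95% interval -1.58 to 0.17), and the single gels by -1.44 (combined gel), -0.56 (nanoparticles) and -0.11 (curcumin). EP 3 and EP 4 were its highest EP libraries, and without them and Sham 4 the mean differed by -0.13. Cd47, the signal that restrains uptake by macrophages, ranged over 3205 to 5981 in the gels and 3237 to 7344 in EP and differed by -0.14 (-0.57 to 0.30), or 0.19 without EP 3, EP 4 and Sham 4.

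Matrix and immediate early genes gave single members. Dcn, decorin, a proteoglycan of collagen fibers, ranged over 28406, 45988 and 80930 normalized counts in the gels and had 44507, 34908, 36892, 22588 and 31002 in EP, a difference of 0.63 (SE 0.172). The 5 Cur/ZNP gel libraries, at 64332 to 80930, lay above all EP libraries, and the differences were 1.08 in Cur/ZNP gel, 0.41 in Cur gel and 0.40 in ZNP gel (F test among the gels, adjusted p = 0.707 in limma). Of 22 collagen and fibroblast matrix genes 2 were higher at p under 0.05 (2.2% of all genes were), Dcn and Mfap5, with a median of 0.15. Without EP 3, EP 4 and Sham 4, Dcn differed by 0.50 and Mfap5 by 0.28 in place of 0.52. Of 24 immediate early genes 4 were higher and 1 lower at p under 0.05, against 2.2% and 3% of all genes, and only Atf3 was without those libraries. Among them Fosb, an AP-1 subunit, differed by 2.13 with curcumin, 0.54 with the nanoparticles and 0.60 with both (F test, adjusted p = 0.707 in limma), and Atf3, a stress-induced repressor, by 0.83, 0.65 and 0.58 in the same order. Over the 3 gels Fosb differed by 1.09, and by 0.71 without EP 3, EP 4 and Sham 4. Across all genes the F test among the gels called 0 of 16062 (0%), with 1093 (6.8%) at an unadjusted p under 0.05.

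Set against EP singly, the gels gave few calls in limma: 0 for Cur gel (0%), 1 for ZNP gel (0.00623%) and 0 for Cur/ZNP gel (0%). At an unadjusted p under 0.05, Cur gel had 284 genes (1.77%; 0.722% higher and 1.05% lower). ZNP gel had 481 (2.99%; 1.61% higher and 1.38% lower), and Cur/ZNP gel had 2052 (12.8%; 4.96% higher and 7.81% lower). These comparisons use the same 5 EP libraries, so they are not independent of each other or of the mean of the gels. EdgeR called 0 genes in each. DESeq2 called 83 (0.517%) for curcumin, 65 (0.405%) for the nanoparticles and 206 (1.28%) for the combination.

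Over the 35 gene lists, limma called 0 members. EdgeR called 8 (Tsc22d3, Nr1d1, Slc39a2 and the nasal gland genes Pip, Mup4, Mup5, Obp1f and Obp2b), and DESeq2 called these 8 and Cry1, Dcn and Lpo, 11 in all. Several of the medians farthest from 0 were those of other tissues. Nasal gland genes had a median of -4.08, and 0.31 without EP 3, EP 4 and Sham 4. Skeletal muscle genes were negative in 16 of 16, with a median of -0.54 that was -1.06 without EP 3, EP 4 and Sham 4, and in single gels of -1.73 (curcumin), -0.12 (nanoparticles) and 0.23 (both); 0 were at p under 0.05. Salivary gland genes had medians of 0.73 (curcumin), 0.61 (nanoparticles) and -2.84 (both) in single gels. Over the 3 gels their median was -0.17, and -1.42 without EP 3, EP 4 and Sham 4. Autonomic neuron genes had a median of 0.82, and 0.54 without them; Vip, a neuropeptide of parasympathetic ganglia, was at 0 to 15713 normalized counts in the gels and 0 to 35.9 in EP, and the high value was that of Cur/ZNP gel 2, in which the list took 0.0969% of reads. Keratinocyte lists were slightly positive (0.15 for basal and 0.19 for differentiated cells) and slightly negative without those libraries (-0.03 and -0.22).

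**Figure D5:**
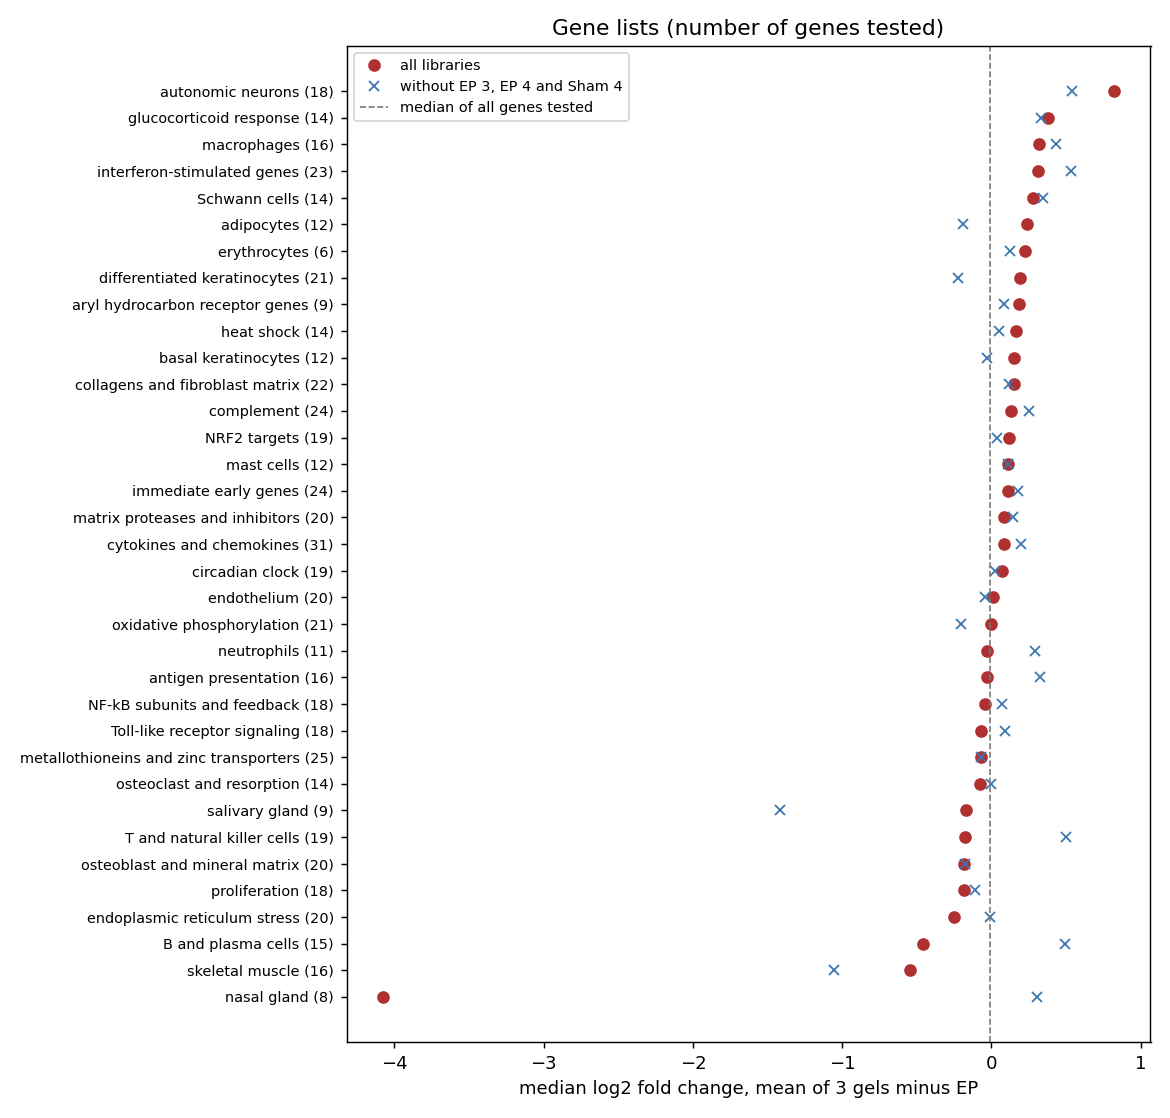
Median log2 fold change (mean of the 3 gels minus EP) of each of 35 gene lists, with the number of genes tested in parentheses, over all libraries (circles) and without EP 3, EP 4 and Sham 4 (crosses); the dashed line is the median of all genes tested. Nasal gland genes lie at -4.08 with all libraries and at 0.31 without the 3, while the glucocorticoid list lies at 0.38 and 0.33.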

How the data were processed

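Stranded total RNA libraries (TruSeq, RiboZero Plus) were made from rat gingiva. The table the authors deposited gives signal values for each Ensembl transcript of Rnor_6.0, namely its reads over the size factor of that library; DESeq2 is named in the submitters' processing notes, and the aligner and counter are not given in the sources used here. Whole reads were recovered from the steps of the values (100% whole within 0.01), and 41078 transcripts (396 without symbol) were summed to 30214 genes. Groups came from the labels. Genes reaching 2 CPM in 1 library or more were tested (16062). The main test was limma 3.58.1 (R 4.3.3) on log2(normalized count + 1), with a robust trend over all 25 libraries, the contrast weighting the 3 gels equally, and two-sided Benjamini-Hochberg values at 0.05. edgeR 4.0.16 and DESeq2 1.42.0 on the recovered reads, other filters and pseudocounts, and leaving out libraries were alternatives. The fits were tested on simulated data.

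Named genes were the 10 with the smallest p in each direction (real symbols, mean log2 CPM of at least 1), up to 3 members per list, and genes named by the study, of which Gapdh was not found in the table analysed. Other list members are named beside their list's counts, chosen after their values were seen. The members and the 35 lists (660 entries, 598 tested) were chosen with earlier results of these data known. Replicates were separate rats. Depth was 50690789 to 81791804 reads, and the highest correlation between libraries was 0.965.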

Additional observations from a re-analysis of the deposited data

Results flagged for a closer look

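Each set of 5 libraries was examined for a single library far from the other 4 (a gap of more than 0.71 of the range), for 25 named genes and 3 tissue shares in 5 groups. Of 140 sets, 14 held such a library, each time at the high end. Chance gives about 1 in 20 only for independent, normally distributed values. The values here were not log-transformed and the sets share libraries, so no excess can be read from the count. In the gel groups these were Nr1d1 in Cur/ZNP gel 1 (10900 normalized counts, against 7916 to 8510 in the other 4), Sult1a1 in ZNP gel 3 (5030, against 2260 to 2925), Ppp2r5c in Cur gel 2 (5640, against 4659 to 4923), Tnfrsf11b in Cur/ZNP gel 5 (2340, against 592 to 877) and Tnf in Cur/ZNP gel 2 (83.1, against 10.2 to 24.2). Nasal gland genes took 0.0649% of reads in Cur/ZNP gel 2, against 0.00202% to 0.00970% in its group, and salivary gland genes 15.8% in Cur gel 4, against 6.15% to 7.20%.

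In EP, Gsta1 was high in EP 1 (5070, against 2325 to 2880) and Slc16a13 in EP 4 (7070, against 575 to 2262). In sham, Sham 4 was high for Slc23a1 (557, against 66.9 to 140), Slc16a13 (4030, against 842 to 1144), Ceacam1 (4680, against 542 to 1448) and nasal gland genes (12.3%, against 0.00196% to 0.00982%), and Sham 3 was high for Bglap (10600, against 249 to 2240).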

How the results depend on the processing

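The count of genes called between the mean of the gels and EP was 0 in limma without a filter on low values, with edgeR's own filter, on the 20 EP and gel libraries alone, with the 15 gel libraries as 1 group, with pseudocounts of 0.5 and 4, with array weights (Tsc22d3 and Cry1 then had adjusted p = 0.0565) and in each of 20 fits with 1 library left out (0 to 0). It was 65 in edgeR with TMM factors, 67 with RLE factors and 143 in DESeq2, and DESeq2 without EP 3, EP 4 and Sham 4 gave 4; edgeR and DESeq2 shared 61 genes. In limma, genes at an unadjusted p under 0.05 numbered 188 without EP 3, EP 4 and Sham 4, and 219 (without EP 4) to 1486 (without EP 1) with 1 library left out. With a replicate block 0 genes were called (939 at an unadjusted p under 0.05). Same-numbered libraries had correlations of their deviations from -0.382 to 0.507, and 12 of 30 pairs were over 0.1. Of 20 libraries, 7 correlated best with their own number. What the numbers stand for is not given in the sources used here, and these values do not show whether they mark a block.

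For Cur gel and Cur/ZNP gel, DESeq2 called 83 and 206 genes, and the other alternatives run called 0. For ZNP gel DESeq2 called 65; the 1 call of limma (Nr1d1) was 0 in edgeR, with the replicate block and without EP 3, EP 4 and Sham 4, and 0 to 1 with 1 library left out. The F test among the gels gave 0 to 1 calls, the 1 being Ldb2 without ZNP gel replicate 3.

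Signs turned where EP 3, EP 4 and Sham 4 were left out, in limma, edgeR and DESeq2 in that order: Slc39a2 (0.028, 0.033 and 0.033), Pip (0.44, 0.18 and 0.16), Obp2b (0.31, 0.32 and 0.30), Lpo (0.028, 0.47 and 0.47) and Cd47 (0.19, 0.19 and 0.19, and from -0.28 without EP 5 to 0.015 without EP 3). In limma Mt2A (-0.20), Hmox1 (-0.21), Gclm (-0.020) and Per3 (-0.018) also turned. Mup5 turned in edgeR (0.14) and DESeq2 (0.13), and Tnf ranged from -0.30 without EP 1 to 0.48 without EP 3. The cause was not tested. The precision was limited by the 5 EP rats, with a median SE of 0.204 in limma.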
